A study of Mus musculus with 12 samples.

Results

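The Egr genes (early growth response) encode 4 zinc finger transcription factors, Egr1, Egr2, Egr3 and Egr4, and all 4 were examined, out of 21887 protein-coding genes placed on the mouse build mm10. They were chosen by name. For each gene, every accessible region was taken that overlapped its RefSeq span or the 20 kb on either side. Accessibility had been measured by ATAC-seq, in which a transposase cuts open DNA and tags it for sequencing, and each library's peak list gives the regions with more cuts than the local background. Both groups were adult male C57BL/6 mice of 10 to 12 weeks that had learned, over 3 pairings, that a tone is followed by a foot shock. The extinction mice (EXT) were given 60 tones without shock in a different context a day later, and the retention control mice (RC) spent the same time there without tones. Infralimbic prefrontal cortex was taken directly afterwards, tissue of 5 mice was pooled per library, and cells positive for Arc and for the neuronal protein NeuN were sorted, 50000 per library. Selection on Arc, an activity-induced gene, applied to both groups. The lists of EXT replicate 1, EXT replicate 2 and RC replicate 3 cover the whole genome and are used here.

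Egr proteins bind GC-rich DNA and are immediate early gene products: neuronal firing switches their genes on within minutes, without new protein synthesis, through calcium and MAP kinase signals that act on the factors SRF, Elk and CREB at the promoter. Egr1, also called Zif268, is widely used as a marker of neuronal activity and is tied to memory consolidation and reconsolidation. Egr2 (Krox20) is best known for patterning the hindbrain and for myelination by Schwann cells, Egr3 for muscle spindle development and for plasticity, and Egr4 (NGFI-C) is the least studied of the family. Nab1 and Nab2 are corepressors that bind Egr proteins.

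Promoters of Egr2 and Egr4, the members in the promoter table used, are shown where they hold the sequence classes through which activity acts on immediate early genes. The sequences are from RefSeq on GRCm38.p6, the same build as mm10, and give the 250 bases before an annotated start, 5′ to 3′. RefSeq lists 5 starts for Egr2 in the table used, of which those at 67537566 and 67537869 are given, and 1 for Egr4, at 85513589. The Egr2 windows were chosen for their motifs. The window of the first start, 67535499, is not given: it held no CArG box and no core but GGGCGG at 4 places, and no list had a peak over it. The windows of the starts at 67537870 and 67537930 overlap the one at 67537869. Capitals mark CArG boxes, the binding site of SRF, and TGACG or its reverse complement CGTCA, the core of the cAMP response element bound by CREB (the core is contained in the full element TGACGTCA).
Egr2, start 67537566, chr10:67537316-67537565, + strand: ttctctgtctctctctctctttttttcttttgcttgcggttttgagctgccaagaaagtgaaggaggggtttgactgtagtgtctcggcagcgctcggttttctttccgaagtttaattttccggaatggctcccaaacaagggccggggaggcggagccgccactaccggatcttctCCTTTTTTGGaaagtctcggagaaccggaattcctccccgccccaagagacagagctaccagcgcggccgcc
Egr2, start 67537869, chr10:67537619-67537868, + strand: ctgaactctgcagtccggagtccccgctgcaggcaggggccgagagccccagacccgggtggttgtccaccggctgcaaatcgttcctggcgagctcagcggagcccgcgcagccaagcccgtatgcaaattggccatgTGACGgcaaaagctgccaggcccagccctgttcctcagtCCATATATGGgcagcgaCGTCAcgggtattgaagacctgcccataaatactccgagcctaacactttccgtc
Egr4, start 85513589, chr6:85513590-85513839, - strand: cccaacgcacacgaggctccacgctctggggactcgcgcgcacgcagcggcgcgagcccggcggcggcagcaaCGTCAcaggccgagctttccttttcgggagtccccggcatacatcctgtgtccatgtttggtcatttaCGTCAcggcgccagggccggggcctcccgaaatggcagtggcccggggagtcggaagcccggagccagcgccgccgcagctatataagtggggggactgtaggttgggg

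The Egr2 promoter at start 67537869 held a CArG box and the TGACG core at 2 places. Counted back from the start, the box occupied bases 72 to 63, and the cores bases 111 to 107 and 55 to 51. Since the windows were chosen for these motifs, the shares that follow describe how common each motif is and test nothing. Of the 21263 promoters of this length at starts of protein-coding genes, 1.39% held a CArG box on either strand, 20.2% a TGACG core and 0.198% both. The Egr4 promoter held the core at bases 177 to 173 and 109 to 105, and no CArG box. Of all 21263 promoters, 4.85% held 2 or more cores at any place. The Egr2 promoter at start 67537566 held a CArG box at bases 72 to 63 and no core. The full element TGACGTCA, the Egr binding site GCGNGGGCG, the AP-1 site TGANTCA and TATAAA, searched on both strands, were in none of these 3 windows, against 1.92%, 6.34%, 6.13% and 11.6% of all promoters. GGGCGG was in the Egr2 window at start 67537566 and not in the other two, against 42.6%. A match in letters is not evidence that a factor was bound.

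Peaks lay over the Egr4 promoter and over the Egr2 promoter at start 67537869 in each list. The 250 bases before the Egr4 start were covered in full in EXT replicate 1, EXT replicate 2 and RC replicate 3. Of the 250 bases before Egr2 start 67537869, peaks covered 158 in EXT replicate 1, 250 in EXT replicate 2 and 199 in RC replicate 3, and in all 3 lists they took in the CArG box and both cores. The bases before start 67537566, CArG box included, lay under a peak in EXT replicate 2 and in neither of the other lists.

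**Figure D1:**
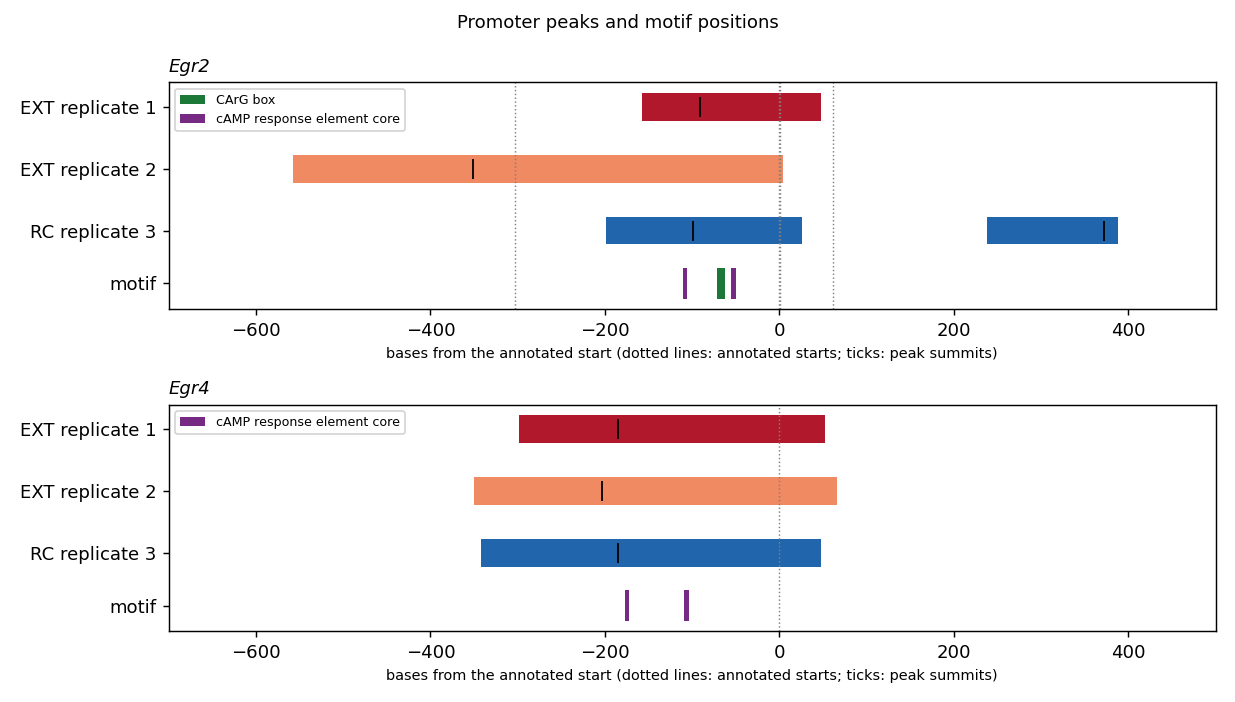
Peaks (bars) and summits (black ticks) of EXT replicate 1, EXT replicate 2 and RC replicate 3 around the Egr2 start 67537869 and the Egr4 start, in bases from that start with transcription to the right; the lowest row marks CArG boxes and TGACG cores within the 250 bases before it. The Egr2 peak of EXT replicate 2 reached further upstream than those of the other lists, and the Egr4 peaks covered nearly the same bases in all 3.

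All 4 genes had a peak at a promoter or gene end in each of the 3 lists. The promoter was taken as 1 kb on either side of an annotated start for Egr2 and Egr4. For Egr1 and Egr3, whose starts are not in the table used, it was taken as 1 kb on either side of both gene ends, and the lower end is where each is transcribed from. Of all protein-coding genes, 53.4% had such a peak in EXT replicate 1, 60.4% in EXT replicate 2 and 55.4% in RC replicate 3. The count of 4 members is too small to set against those shares by a test. Of 20 other immediate early genes, 18, 19 and 19 had one in these lists. Where present, their best peaks had a median fold percentile of 69.7 and 60.4 in the EXT lists and 59.9 in the RC list, against 72.8, 81.1 and 74.9 for all protein-coding genes with such a peak. By pileup the order was reversed, with medians of 91.6 and 95.3 in the EXT lists and 93.1 in the RC list. All protein-coding genes with such a peak had pileup medians of 80.5, 87.9 and 83.7. With 2 EXT libraries and 1 RC library that reach the genes, no test between the groups could be made, and differences below are given as values only. Pileups and folds are not scaled between libraries: they are printed for each list, and heights are compared between lists only as percentiles.

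Egr1 (chromosome 18, 34861207 to 34864956) carried the widest promoter peak of the family and had the tallest or joint tallest pileup in each list. The peak ran from 34860494 to 34861357 in EXT replicate 1, from 34860493 to 34861389 in EXT replicate 2 and from 34860643 to 34861544 in RC replicate 3. Its summit lay at -99, -99 and -98 bp from the lower end of the gene, the same place to within a base. The pileup, the number of tags over the summit, was 102 and 169 in EXT replicates 1 and 2 and 136 in RC replicate 3, or percentiles of 98.1, 97.9 and 98.4 within those lists. Fold enrichment, the authors' ratio of the pileup to the local background, was 3.82 and 4.45 in the EXT lists and 4.00 in the RC list. By fold the peak stood only at the 52.3rd and 51.8th percentile in the EXT lists and at the 52.7th in the RC list. The mean EXT percentile less the RC value was -0.654 percentage points. With lists cut to equal length, the fold percentiles lay further apart, at 52.3 and 26.3 in the EXT lists and 42.6 in the RC list. Among genes with a promoter or gene-end peak, Egr1 stood at the 25.8th and 19.8th percentile by fold in the EXT lists and the 24.9th in the RC list. By pileup it stood there at the 90.4th and 83.5th in the EXT lists and the 88.8th in the RC list.

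The rank of the Egr1 promoter thus differed between fold and pileup. The background that the fold implies was 26.0 and 37.2 tags in EXT replicates 1 and 2 and 33.3 tags in RC replicate 3, which is 3.87, 5.90 and 4.42 times the median over the peaks of the same list. It stood at the 99.8th, 99.7th and 99.7th percentile. MACS took that background from tags of the same library in the surrounding 10 kb, and for a given pileup a higher background gives a lower fold. The best promoter peaks of all genes that had one reached a median background percentile of 72.3 and 76.4 in the EXT lists and 71.7 in the RC list. Other immediate early genes stood at medians of 92.9 and 96.7 in the EXT lists and 91.0 in the RC list. Arc, the gene of the sorting marker, was at the 99.9th percentile in both EXT lists and the 99.96th in the RC list, and Junb at the 99.5th and 99.7th in the EXT lists and the 99.6th in the RC list. In sorted, pooled cells a lower value cannot be told apart as fewer open cells or as less opening per cell.

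**Figure D2:**
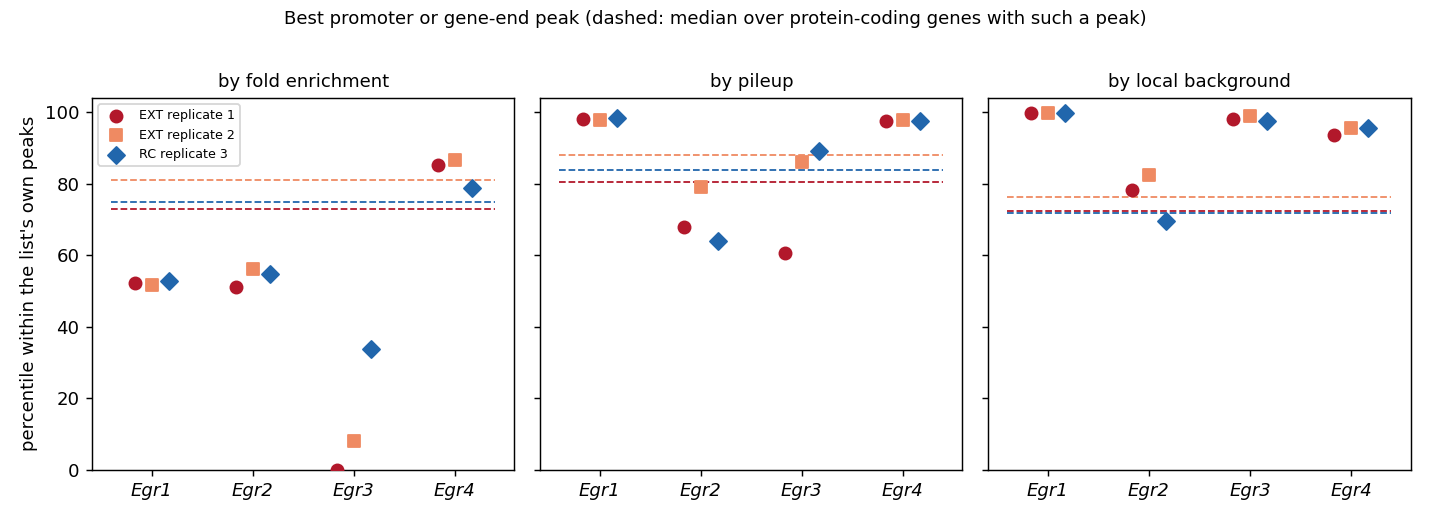
Percentile of the best promoter or gene-end peak of each Egr gene within its own list, by fold enrichment, by pileup and by local background, with 1 point per library and dashed lines at the median over all protein-coding genes with such a peak. Egr1 sits near the 52nd percentile by fold and near the 98th by pileup in all 3 lists at full length, and the Egr3 points spread from 0.0396 to 33.7 by fold.

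Egr4 (chromosome 6, 85511121 to 85513589, minus strand) had the best-ranked promoter peak of the family by fold. It ran from 85513538 to 85513888 in EXT replicate 1, from 85513524 to 85513939 in EXT replicate 2 and from 85513542 to 85513931 in RC replicate 3, with summits at -185, -203 and -185 bp from the start. Pileups were 97 and 169 in the EXT lists and 117 in the RC list, and folds were 6.45 and 8.35 in the EXT lists and 5.93 in the RC list. The peak stood at the 85.1st and 86.6th percentile by fold in EXT replicates 1 and 2 and at the 78.8th in RC replicate 3, a difference of 7.05 percentage points between the EXT mean and the RC value. Both EXT values lay above the RC value by fold. By pileup the percentiles were 97.6 and 97.9 in the EXT lists and 97.5 in the RC list, a difference of 0.276. Even so, by fold the peak was ordinary for a promoter: 71.3%, 60.3% and 55.3% of genes with a promoter peak had a lower best rank in EXT replicate 1, EXT replicate 2 and RC replicate 3. By pileup it stood higher among these genes, at the 88.2nd and 83.5th percentile in the EXT lists and the 84.0th in the RC list.

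Egr2 (chromosome 10, 67534469 to 67542188) has 5 starts in the table used, all inside its annotated span. Its promoter peaks lay there, more than 1 kb from either outer end. The lower end of the span is not among these starts and had no window of its own. The best peak ran from 67537711 to 67537916 in EXT replicate 1, from 67537311 to 67537872 in EXT replicate 2 and from 67537670 to 67537894 in RC replicate 3. Pileups were 40 and 60 in the EXT lists and 44 in the RC list, the lowest of the family's promoters except for Egr3 in EXT replicate 1. Folds were 3.75 and 4.75 in the EXT lists and 4.10 in the RC list, at the 51.1st and 56.0th percentile in the EXT lists and the 54.8th in the RC list. The RC value lay between the EXT values. Local background was the lowest of the 4 promoters in each list, at 1.48 and 1.88 times the list median in the EXT lists and 1.32 times in the RC list, and still stood at the 78.2nd and 82.6th percentile in the EXT lists and the 69.6th in the RC list.

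A second Egr2 region lay between the starts at 67535499 and 67537566. EXT replicate 1 had a peak there from 67536638 to 67536933 with a fold of 3.63 (47.6th percentile), and EXT replicate 2 one from 67536663 to 67537039 with a fold of 2.59 (6.77th percentile). RC replicate 3 had none there, and instead a 150 bp peak downstream of the starts, from 67538107 to 67538256, with a fold of 2.89 (22.5th percentile). The EXT region also lay within 1 kb of an end of Gm32255, a lncRNA gene that overlaps the lower part of the Egr2 span. A list holds no value for a region that was not called, so how far below the threshold it lay is not known.

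Egr3 (chromosome 14, 70077317 to 70082613) showed the largest difference between lists at its lower end. In RC replicate 3 a peak of 803 bp covered that end, from 70077293 to 70078095, with a pileup of 72, a fold of 3.22 and the 33.7th percentile. EXT replicate 1 had a peak of 150 bp, from 70077570 to 70077719, with a pileup of 36 and a fold of 1.90, which ranked 80704 of 80735 peaks in that list (0.0396th percentile). EXT replicate 2 had none over the end itself and a peak 344 bp below it, from 70076760 to 70076973, with a pileup of 74, a fold of 2.65 and the 7.99th percentile. By fold the EXT mean was 29.7 percentile points lower (a difference of -29.7), and both EXT values lay below the RC value. By pileup the percentiles were 60.6 and 86.1 in EXT replicates 1 and 2 and 89.1 in RC replicate 3, a difference of -15.7. EXT replicate 2 was then close to the RC list. Local background stood at the 98.2nd and 98.8th percentile in the EXT lists and the 97.6th in the RC list. The fold difference was 13.7, the other way, when the window was 2 kb on either side of the ends, because a stronger region then entered it.

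That stronger region lay upstream of Egr3, 1376 to 1809 bp from the gene at its near edge, and was in all 3 lists. It ran from 70074645 to 70075567 in EXT replicate 1, from 70074524 to 70075941 in EXT replicate 2 and from 70074816 to 70075508 in RC replicate 3, where a further peak of 157 bp followed. At 1418 bp, the peak of EXT replicate 2 was the widest of any peak around the 4 genes. Pileups were 57 and 130 in the EXT lists and 63 in the RC list, and the peak stood at the 36.5th and 58.4th percentile by fold in the EXT lists and at the 26.2nd in the RC list. In both EXT lists it outranked the peak at the gene's lower end, and in the RC list it did not. Within Egr3, a peak with summits 2671 bp and 2647 bp from the lower end in EXT replicate 1 and RC replicate 3 had folds of 3.29 and 3.17, and EXT replicate 2 had none inside the gene.

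Egr1 had the most accessible surroundings. The gene and its 20 kb flanks held 7 and 10 peaks in EXT replicates 1 and 2 and 8 in RC replicate 3, which covered 6.43% and 12.0% of the window in the EXT lists and 9.19% in the RC list. Of all protein-coding genes, 99.1%, 99.96% and 99.8% had a smaller covered share in these lists, where the medians were 1.47%, 2.49% and 1.79%. Next came Egr3, with 6 and 7 peaks in the EXT lists and 8 in the RC list and covered shares of 4.87% and 8.03% against 7.45%. Egr4 had 4 and 5 peaks in the EXT lists and 5 in the RC list, with shares of 2.02% and 4.10% against 3.45%. Egr2 had 4 and 5 in the EXT lists and 4 in the RC list, with shares of 2.60% and 4.28% against 2.60%. Egr1 held the largest covered share and Egr3 the next in each list. Egr2 exceeded Egr4 in both EXT lists and fell below it in the RC list, so their order was not settled.

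The RC list lay between the EXT lists in covered share at all 4 genes, with EXT replicate 1 the lowest, by a narrow margin at Egr2. The same order held for the length of the lists, at 80735 and 123375 peaks for EXT replicates 1 and 2 and 97961 for RC replicate 3, although tags numbered 65.0 and 57.7 M in the EXT libraries and 73.8 M in the RC library. The part of list length in the peak numbers was not tested. A window held at least 1 peak for 80.5% of protein-coding genes in EXT replicate 1, 84.2% in EXT replicate 2 and 82.4% in RC replicate 3.

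**Figure D3:**
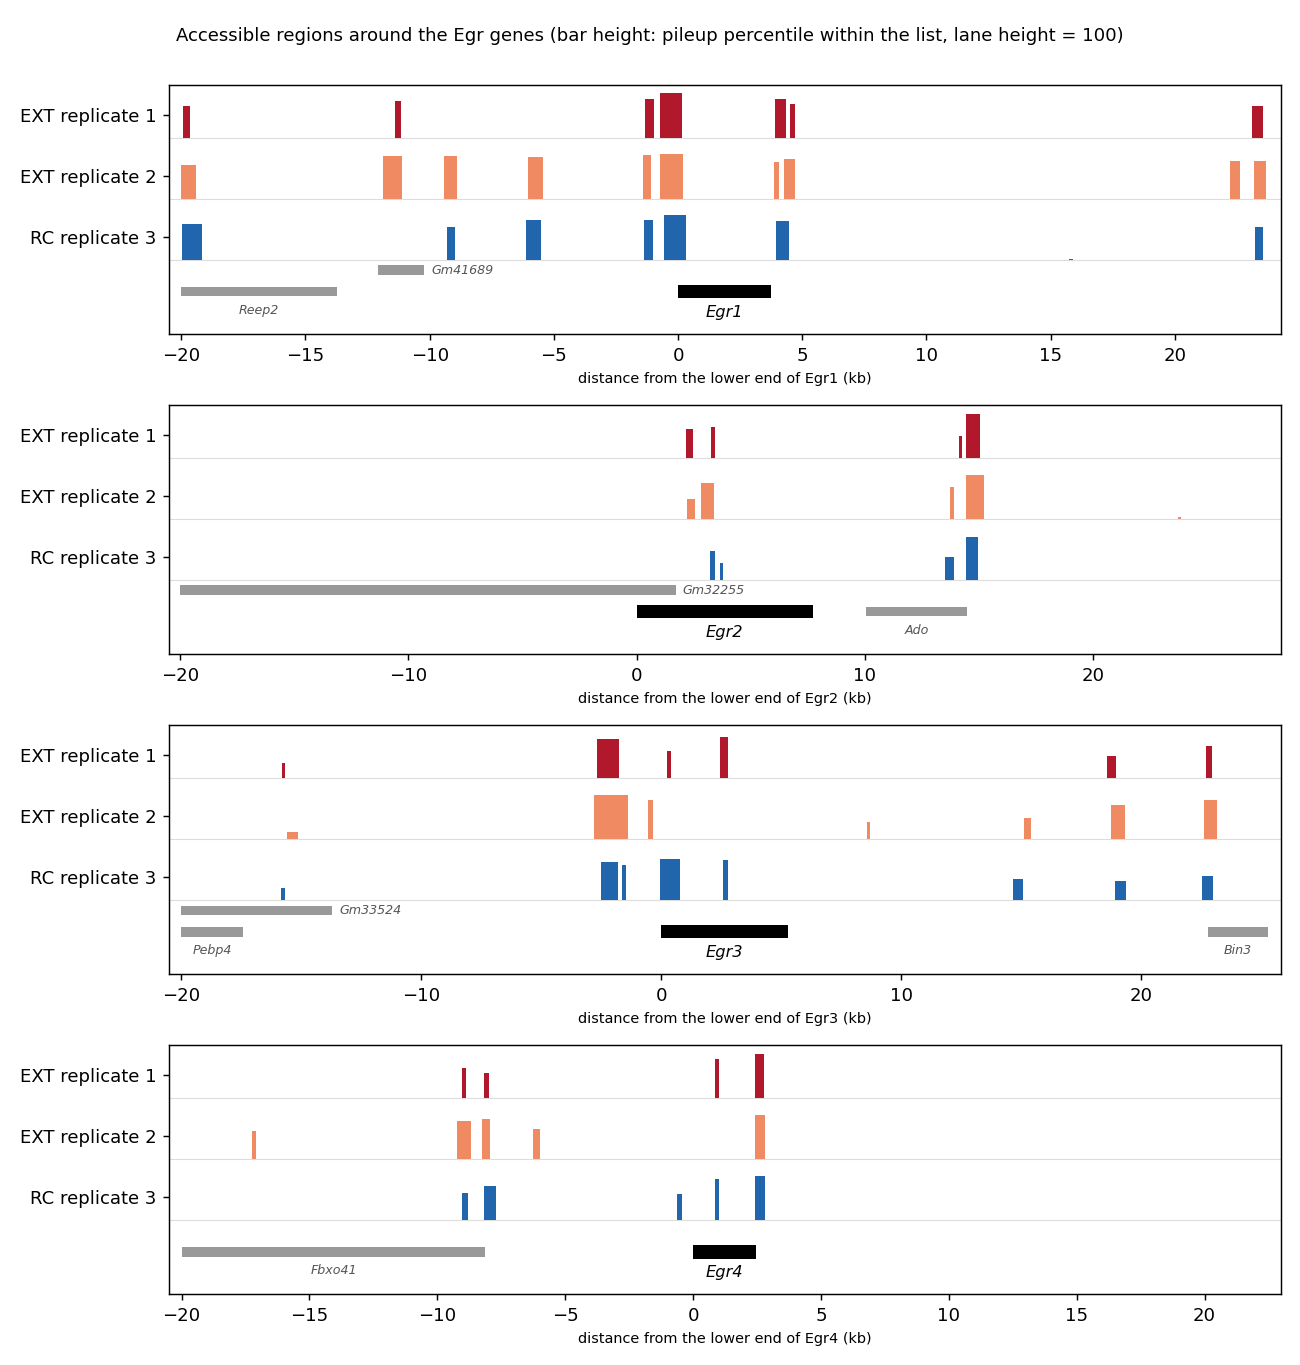
Peaks around each Egr gene in EXT replicate 1, EXT replicate 2 and RC replicate 3, by distance from the gene's lower end in kb; bar width is peak width (drawn at 150 bp or more) and bar height the pileup percentile within the list. Black bars are the Egr genes and grey bars their neighbours, and the peaks of Egr1 stand in a row from the gene to 11 kb below it in EXT replicate 2.

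Upstream of Egr1 a series of peaks followed the promoter. A region that began near 1 kb from the gene was in all 3 lists, with pileups of 55 and 140 in the EXT lists and 67 in the RC list and folds of 2.22 and 3.62 against 2.04. Its edges straddled the 1 kb limit, so it counted as a gene-end peak in EXT replicate 1 and as flanking in the other lists. Peaks 5423 and 8898 bp below the gene in EXT replicate 2, with pileups of 97 and 101, matched peaks at 5528 and 8992 bp in RC replicate 3, with pileups of 67 and 50. EXT replicate 1 had neither. Farther out, at 11166 bp in EXT replicate 1 and 11112 bp in EXT replicate 2, both EXT lists had a peak that the RC list lacked, with pileups of 51 and 100 and folds of 2.84 and 4.07. It lay over the lncRNA gene Gm41689. These values were at the 17.4th and 43.3rd percentile by fold. Above the gene, peaks within 1 kb of the upper end were in all 3 lists, and their folds ran from 1.98 to 2.57, at the 6.34th percentile or lower.

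Of the 35 regions left when overlapping peaks of the 3 lists were merged, 13 were in all lists, 9 in 2 and 13 in 1. Egr1 had 5 regions in all lists, Egr3 and Egr4 had 3 each and Egr2 had 2. Regions in both EXT lists and not in the RC list numbered 2, those near Gm41689 and between the Egr2 starts. Over the genome, 25.8% of merged regions were in all 3 lists and 4.34% in both EXT lists alone. The RC list alone held 4 of the 35 regions and EXT replicate 2 alone held 8, against 10.7% and 29.2% of regions over the genome. EXT replicate 1 alone held 1, against 9.38%. EXT replicate 1 shared 4 regions with the RC list alone and EXT replicate 2 shared 3, against 7.14% and 13.4%. As a share of 35 regions, the pattern of both EXT lists alone was near its background.

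Many of the other peaks lay near an end of a neighbouring gene. Nearness does not show to which gene a peak belongs, and no such share is given for the flanks of all genes. Of the flanking peaks, 7 of 11 in EXT replicate 1, 8 of 20 in EXT replicate 2 and 7 of 17 in RC replicate 3 lay within 1 kb of an end of another gene. The strongest of them, 6726 bp above Egr2, stood at the end of Ado, which encodes a thiol dioxygenase. It began at 67548914 in every list, with folds of 9.02 and 12.6 in the EXT lists and 8.34 in the RC list, and ranked at the 94.9th and 96.8th percentile against the 92.5th. No peak at an Egr promoter ranked as high by fold. Peaks at the end of Bin3, a gene for a membrane-curving adaptor above Egr3, had folds of 3.91 and 5.75 in the EXT lists and 3.49 in the RC list. At the end of Fbxo41, a neuronal F-box gene below Egr4, each list had a pair of peaks. The nearer to Egr4 had folds of 2.38 and 4.78 in the EXT lists and 3.20 in the RC list, and the farther had folds of 2.74 and 3.82 in the EXT lists and 2.49 in the RC list. The peak at Reep2, below Egr1, had folds of 2.96 and 2.93 against 2.82.

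Inside Egr4, EXT replicate 1 and RC replicate 3 had a peak with the same bounds, 85511968 to 85512130, a width of 163 bp, with folds of 3.81 and 3.91 and pileups of 56 and 75. EXT replicate 2 had none there. Peaks with identical bounds in these lists made up 18.6% of the EXT replicate 1 list and 15.3% of the RC replicate 3 list. Peaks of 163 bp or less made up 4 of 21 in EXT replicate 1, 4 of 27 in EXT replicate 2 and 4 of 25 in RC replicate 3 around the Egr genes, against 37.5%, 30.5% and 40.1% of the whole lists. The peak at the Egr3 end in EXT replicate 1 was one of these.

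Local background was raised over most of the 4 loci. It exceeded the list median for 20 of 21 peaks in EXT replicate 1, 25 of 27 in EXT replicate 2 and 23 of 25 in RC replicate 3. At Egr1 the median over peaks was 3.06 and 4.62 times the list median in the EXT lists and 2.93 times in the RC list. At Egr3 it was 2.16 and 2.02 times in the EXT lists and 2.16 times in the RC list, at Egr4 2.06 and 2.67 times against 2.41 times, and at Egr2 1.42 and 1.79 times against 1.28 times. Egr1 was highest and Egr2 lowest in each list. Neighbouring peaks share the tags behind this value and are not independent. It is worked out from the pileup and the fold, so it is not a separate measurement. No such count is given for peaks near other genes.

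**Figure D4:**
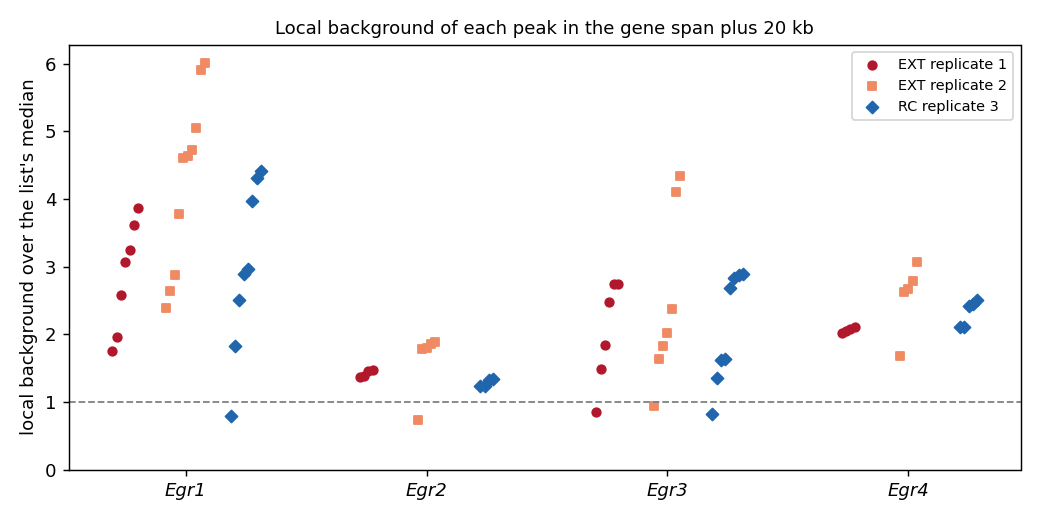
Local background of every peak in the 4 gene spans plus 20 kb, as a multiple of the median over all peaks of the same list (dashed line at 1), with 1 point per peak and the libraries side by side within each gene. The Egr1 points reach 3.87 and 6.02 in EXT replicates 1 and 2 and 4.42 in RC replicate 3, while the highest Egr2 points are 1.48, 1.88 and 1.34.

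The 20 kb limit fell near peaks of Egr1. In EXT replicate 1 a peak 19632 bp below the gene was included with a fold of 2.96 and one at 20289 bp with a fold of 2.91 was not. In EXT replicate 2 a peak 19413 bp below it was included with a fold of 2.93, and one at 20438 bp was not, although its fold of 4.90 (58.6th percentile) ranked above that of the Egr1 promoter in the same list. In RC replicate 3 a peak 19474 bp above it was included with a fold of 3.46 and one at 20611 bp with a fold of 2.32 was not. No peak lay within 20 kb below the Egr2 span in any list, nor within 20 kb above Egr4. Below Egr4, a peak of EXT replicate 2 at 20424 bp (fold 4.01) and a peak of RC replicate 3 at 20579 bp (fold 2.93) lay just outside.

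Among the 20 other immediate early genes, those nearest to each Egr gene by the fold percentile of the promoter peak over the 3 lists (Euclidean distance, in percentile points) were found as a description. Pileup did not enter the distance. Egr1 was nearest to Fos at a distance of 8.30, then Junb at 11.03 and Npas4 at 11.3. Fos and Junb encode AP-1 subunits, and Npas4 an activity-dependent factor of neurons. Fos stood at the 52.2nd and 46.3rd percentile in EXT replicates 1 and 2 and the 46.4th in RC replicate 3. By pileup Fos stood at the 84.7th and 88.6th in the EXT lists and the 76.9th in the RC list, below Egr1 in each. Junb stood by pileup at the 98.1st and 97.7th in the EXT lists and the 98.4th in the RC list, near Egr1. Egr2 was nearest to Npas4 at 6.70, then Junb at 11.9 and Fos at 12.9. Egr4 was nearest to Bdnf at 10.7, Jund at 15.1 and Klf4 at 15.5. Bdnf, a neurotrophin gene, stood at the 79.7th and 77.4th percentile by fold in the EXT lists and the 79.1st in the RC list. By pileup it stood at the 78.5th and 84.5th in the EXT lists and the 72.3rd in the RC list, below Egr4 in each. The gene nearest to Egr3 was Ier2, at 27.5. The next by the rule, Nr4a2 and Fosl1, lacked a promoter peak in 1 or more lists, which the rule counts as a percentile of 0, and their distances are not given.

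Genes that act with Egr proteins were also mostly accessible at a promoter or gene end. Of 9 upstream genes, 8 had such a peak in each list, Elk3 being the exception, with median fold percentiles of 83.1 and 88.9 in the EXT lists and 77.0 in the RC list. For all protein-coding genes, 53.4% and 60.4% had such a peak in the EXT lists and 55.4% in the RC list, with medians of 72.8 and 81.1 in the EXT lists and 74.9 in the RC list. Srf stood at the 61.6th and 83.9th percentile in EXT replicates 1 and 2 and the 71.9th in RC replicate 3, and Creb1 at the 87.3rd and 94.5th against the 87.6th. Both corepressor genes had a peak in each list. Nab1 stood at the 55.1st and 74.5th percentile in the EXT lists and the 70.0th in the RC list. Nab2 had the same contrast between measures as Egr1, at the 17.6th and 26.3rd percentile by fold in the EXT lists and the 6.18th in the RC list, but at the 89.5th and 94.6th against the 81.5th by pileup. Of 7 reported Egr targets in neurons, all 7 had a peak in each EXT list and 6 in the RC list, which lacked one at Gabra4, a GABA-A receptor subunit gene. Their median fold percentiles were 45.8 and 58.9 in the EXT lists and 26.8 in the RC list, and Arc and Nab2 are also in other lists above. Slc12a5, the gene of the chloride transporter KCC2, stood at the 45.8th and 50.2nd percentile in the EXT lists and the 13.3rd in the RC list. Cdk5r1, which encodes an activator of the kinase Cdk5, stood at the 51.1st and 82.8th in the EXT lists and the 40.3rd in the RC list. The synaptic vesicle gene Syn1 stood at the 70.6th and 83.8th in the EXT lists and the 64.4th in the RC list. For its relative Syn2, at the 66.7th and 78.9th in the EXT lists and the 71.8th in the RC list, and for Arc, at the 1.42nd and 42.4th in the EXT lists and the 8.99th in the RC list, the RC value lay between the EXT values. These target ranks are by fold. By pileup the target medians were higher, at 89.5 and 94.4 in the EXT lists and 85.1 in the RC list. Arc then stood at the 90.4th and 98.5th in the EXT lists and the 97.0th in the RC list. Slc12a5 stood at the 90.8th and 94.4th in the EXT lists and the 78.9th in the RC list, with RC below both as by fold. For Syn1, at the 71.0th and 92.1st in the EXT lists and the 72.3rd in the RC list, the RC value then lay between the EXT values. For Cdk5r1 the percentiles were 92.04 and 97.8 in the EXT lists and 92.03 in the RC list, so EXT replicate 1 and RC replicate 3 were nearly equal.

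Markers of the sorted cells were checked in the same way. A promoter or gene-end peak was found for 5 of 6 neuronal genes in EXT replicate 1, 6 in EXT replicate 2 and 5 in RC replicate 3. Rbfox3, the gene of NeuN, was the one without in EXT replicate 1 and RC replicate 3, and its peak in EXT replicate 2 was at the 0.0940th percentile by fold. By pileup that peak stood at the 84.5th percentile, and its local background was at the 99.7th. All 4 excitatory neuron genes had one in each list, and 1 of 4 inhibitory neuron genes did, Lhx6. Astrocyte genes had none of 5 in any list. Oligodendrocyte genes had 2 and 3 of 6 in the EXT lists and 2 in the RC list, microglia genes 1 and 0 of 5 against 0, and endothelial genes 1 and 2 of 4 against 2. Of all protein-coding genes, 53.4% and 60.4% had such a peak in the EXT lists and 55.4% in the RC list. Some of these peaks ranked high: Olig1, of the oligodendrocyte lineage, stood at the 99.9th and 96.9th percentile by fold in the EXT lists and the 99.9th in the RC list, and Cldn5, of endothelial cells, at the 98.4th and 86.0th in the EXT lists and the 98.6th in the RC list. Their part in the Egr values was not tested. An accessible promoter does not show that a gene is expressed.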

How the data were processed

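The series holds 12 libraries, and 5 ATAC-seq peak lists were read. Per the submitters' processing notes the build is mm10. The authors ran MACS 2.2.4 on every library separately, per the file headers, without a control library. The settings were a shift of -75 bp, an extension of 150 bp, a q-value cutoff of 0.05 and no removal of duplicates. The lists of RC replicates 1 and 2, as held here, end on chromosome 1 and reach no Egr gene. EXT replicate 3 and the lncRNA capture libraries were not analysed here. Groups follow the sample titles.

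The deposited pileup is a coverage signal in tags, not scaled between libraries. The deposited fold enrichment is a ratio of pileup to local background, with 1 added to each, and the deposited -log10 p and q values come from the same background. All belong to their own list: raw values are printed for each list as a description, and differences between groups were taken on percentiles of rank within a list and on peak numbers only. Local background was computed as (pileup + 1) / fold - 1. Depth enters through the calling of peaks and through the printed pileups, folds and backgrounds, which are not scaled between libraries. No counts per region were used, and there are no intervals.

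Gene spans, starts and promoter sequences are from RefSeq tables of GRCm38.p6. All 4 symbols matched the gene table and Egr2 and Egr4 the promoter table. Positions are 1-based, and an overlap of 1 bp counted. A gene with an annotated start in the promoter table had windows of 1 kb on either side of each start, and any other gene had windows at both ends. The genes named are the 4 Egr genes with their peaks, fixed lists of immediate early genes, of genes that act with Egr proteins and of cell markers, and the 3 nearest immediate early genes. Members and lists were chosen with earlier results of these data known. The motifs and the comparison of pileup with background were chosen after the data were seen. Interval counts and ranks were tested on simulated data. Python 3.11.15, pandas 2.3.3 and numpy 2.4.6 were used.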

Additional observations from a re-analysis of the deposited data

How the results depend on the processing

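The number of Egr genes with a promoter or gene-end peak stayed at 3 or 4 in each list under every alternative tried. It was 3 in EXT replicate 1 with -log10 q of at least 5 or with narrow peaks left out, where Egr3 was lost, and 3 in EXT replicate 2 with lists of equal length. Differences below are the EXT mean less the RC value. Ranked by -log10 q, the promoter percentile differed by -1.54 for Egr1, 6.20 for Egr2, -39.1 for Egr3 and 1.56 for Egr4. Ranked by pileup, it differed by 9.58 for Egr2, -15.7 for Egr3 and 0.276 for Egr4. With -log10 q of at least 5 it was -1.99 for Egr1 and 9.14 for Egr4, and Egr3 gave no value, since EXT replicate 1 then had no peak there. With windows of 2 kb it was 13.7 for Egr3. With peaks wider than 163 bp only, chosen after the data were seen, it was -7.39 for Egr1, -8.07 for Egr2 and 2.64 for Egr4, and Egr3 gave no value. For Egr2 the sign thus depended on the measure, and the cause was not tested. The fold percentiles themselves moved when lists were shortened. With lists of equal length, Egr2 stood at the 51.1st and 32.8th percentile in the EXT lists and the 45.2nd in the RC list. Egr4 then stood at the 85.1st and 79.5th in the EXT lists and the 74.3rd in the RC list. With -log10 q of at least 5, Egr1 stood at the 28.8th and 39.0th in the EXT lists and the 35.9th in the RC list.

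Peak numbers per locus differed by 0.5, 0.5, -1.5 and -0.5 for Egr1, Egr2, Egr3 and Egr4. With 50 kb flanks they differed by 2 for Egr2 and -1.5 for Egr4. With -log10 q of at least 5 they differed by -0.5 for Egr2 and -3 for Egr3, and with lists of equal length by -0.5 for Egr2 and 0.5 for Egr4. Leaving out either EXT library gave promoter percentile differences of -0.900 to -0.409 for Egr1, -3.75 to 1.21 for Egr2, -33.7 to -25.7 for Egr3 and 6.31 to 7.80 for Egr4, and peak number differences of -1 to 2, 0 to 1, -2 to -1 and -1 to 0. No paired analysis was possible because the complete lists of the groups share no replicate number.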
